A study of Mus musculus with 28 samples.

Results

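Complex I (NADH:ubiquinone oxidoreductase) is the entry point for NADH electrons into the respiratory chain of the inner mitochondrial membrane. Its core subunits are encoded by both genomes, the nuclear ones forming the matrix arm and the mitochondrially encoded ones the proton-pumping membrane arm, and supernumerary subunits from the nucleus surround this core. The N module oxidizes NADH, the Q module passes electrons to ubiquinone, and assembly factors join the modules and then leave. Skeletal muscle fibers, which draw on oxidative phosphorylation during contraction, depend on this enzyme. The transcripts described here are all genes of the deposited expression table whose symbol begins with *Nduf*, which number 47 of 12732 genes. Of these, 8 carry *Ndufaf* symbols and encode assembly factors, and 39 carry subunit symbols. By current assignment 37 of the 39 encode complex I subunits, whereas *Ndufa4* is now placed in complex IV and *Ndufa4l2* is its paralog, so both are given apart.

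Total RNA was sequenced from tibialis anterior (TA) muscle of 14 wt and 14 *mfn1,2* mice, littermates of both sexes. The *mfn1,2* mice carried Myl1-Cre, active in fast-twitch fibers, with a deleted and a floxed allele of both mitofusin genes (Mfn1-/flox; Mfn2-/flox). The genotype given for wt littermates is Mfn1+/flox; Mfn2+/flox, in which no Cre is listed. Every mouse therefore carried floxed alleles, the crosses also used a floxed mDendra allele, and cells of the muscle without Cre still differ between genotypes by the deleted allele. By the labels each genotype had 4 mice of 4 weeks, 4 of 6 weeks, 4 of 8 weeks and 2 of 10 weeks, but the columns of the table carry no age, so libraries were compared by genotype alone and differences between ages are part of the spread.

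The deposited table holds normalized expression values whose unit is not stated and which fall with gene length, as FPKM does. Each library was divided by its median ratio to the geometric mean of all libraries, so that every level below is on this scale and every difference is relative to the typical gene of the muscle. The comparison of genotypes used limma on log2(value + 0.1), in 10804 genes whose mean reached 0.5. A gene rose or fell where its Benjamini-Hochberg adjusted *P* over all of these was under 0.01. As a check of the labels, *Mfn1* was between 35.4 and 77.9 in wt and between 8.06 and 18.4 in *mfn1,2* libraries, and *Mfn2* between 39.3 and 56.5 in wt and between 23.8 and 42.4 in *mfn1,2* libraries. *Mfn1* did not overlap between genotypes and fell by 2.04 on the log2 scale (limma adjusted *P* = 1.62e-14). *Mfn2* overlapped and fell by 0.66 on the log2 scale (limma adjusted *P* = 4.60e-09), a direction that turned to 0.40 with equal library totals and to 0.18 with *Actb* as the scale.

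Clustering over all tested genes placed 5 libraries away from the main cluster of their genotype, 4 of wt (columns 6, 8, 9 and 13) and 1 of *mfn1,2* (column 8), at a cut of the tree into 4 clusters that was chosen after seeing the data. Results that rest on these libraries are given with and without them. The muscle is a mixture of cells, in which fewer cells of a type and less RNA per cell cannot be told apart. Summed levels of 7 fast fiber markers ranged from 13240 to 43260 in wt and from 14530 to 26980 in *mfn1,2* muscle, with 1 risen and 5 fallen. For 5 slow fiber markers the sums were 25.5 to 163.6 and 64.2 to 350, with 3 risen. Of 6 endothelial markers *Cd36* rose, from a mean of 68.4 to 194.9, and 5 fell (*Pecam1*, *Cdh5*, *Kdr*, *Tek* and *Emcn*). Their sums were 98.3 to 168 in wt and 160.0 to 273 in *mfn1,2* muscle, higher with *Cd36* included although the 5 other markers fell. Of 6 pericyte and smooth muscle markers 0 rose and 5 fell (sums of 109 to 162.5 and 82.7 to 112). Of 5 tested macrophage markers 4 fell (sums over 6 in the table of 4.00 to 14.7 and 2.80 to 10.0), of 6 fibroblast markers 2 fell (172 to 1407 and 78.3 to 712), and the 1 tested of 3 satellite cell markers fell by 1.20 on the log2 scale. None of 3 adipocyte and 2 tested erythroid markers passed. No marker was at 0 in all libraries of a genotype, and the part of these shifts in the values below was not tested.

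With all libraries, the median log2 fold change of the nuclear complex I genes in *mfn1,2* muscle was 0.017 and that of all tested genes 0.026, with changes in both directions among single subunits and assembly factors. All 47 genes passed the filter on low values. Of these, 6 rose, compared with 28.2% of all 10804 tested genes, and 13 fell, compared with 24.9% of all. Thus 28 did not pass the test, a smaller called share on the rising side than in the background. Without the 5 libraries that cluster apart, 1 of 37 subunits rose and 15 fell, compared with 26.5% and 23.9% of all genes, and the median log2 fold change of the subunits was −0.19 where that of all genes was 0.020. The largest rises were in the assembly factor *Ndufaf2* and the subunits *Ndufb7*, *Ndufab1* and *Ndufs4*, and the largest falls in *Ndufa4l2*, the subunit *Ndufb2* and the assembly factor *Ndufaf5*. Under a stricter rule in limma (Bonferroni *P* under 0.01 with a log2 fold change beyond 1 in either direction), 0 of 47 genes were altered, where 6.02% of all genes were altered upward and 5.11% downward. At an unadjusted *P* under 0.05 from limma, 9 of the 47 were higher and 16 lower, compared with 35.2% and 31.8% of all genes. With a Wilcoxon rank-sum test 0 met the stricter rule, but this outcome was fixed in advance. Even full separation of 14 from 14 libraries cannot reach that Bonferroni threshold over 10804 genes. Levels of all 14 *mfn1,2* libraries lay above all wt libraries for 6.16% of genes and below for 5.08%, but for 0 of the 47.

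**Figure D1:**
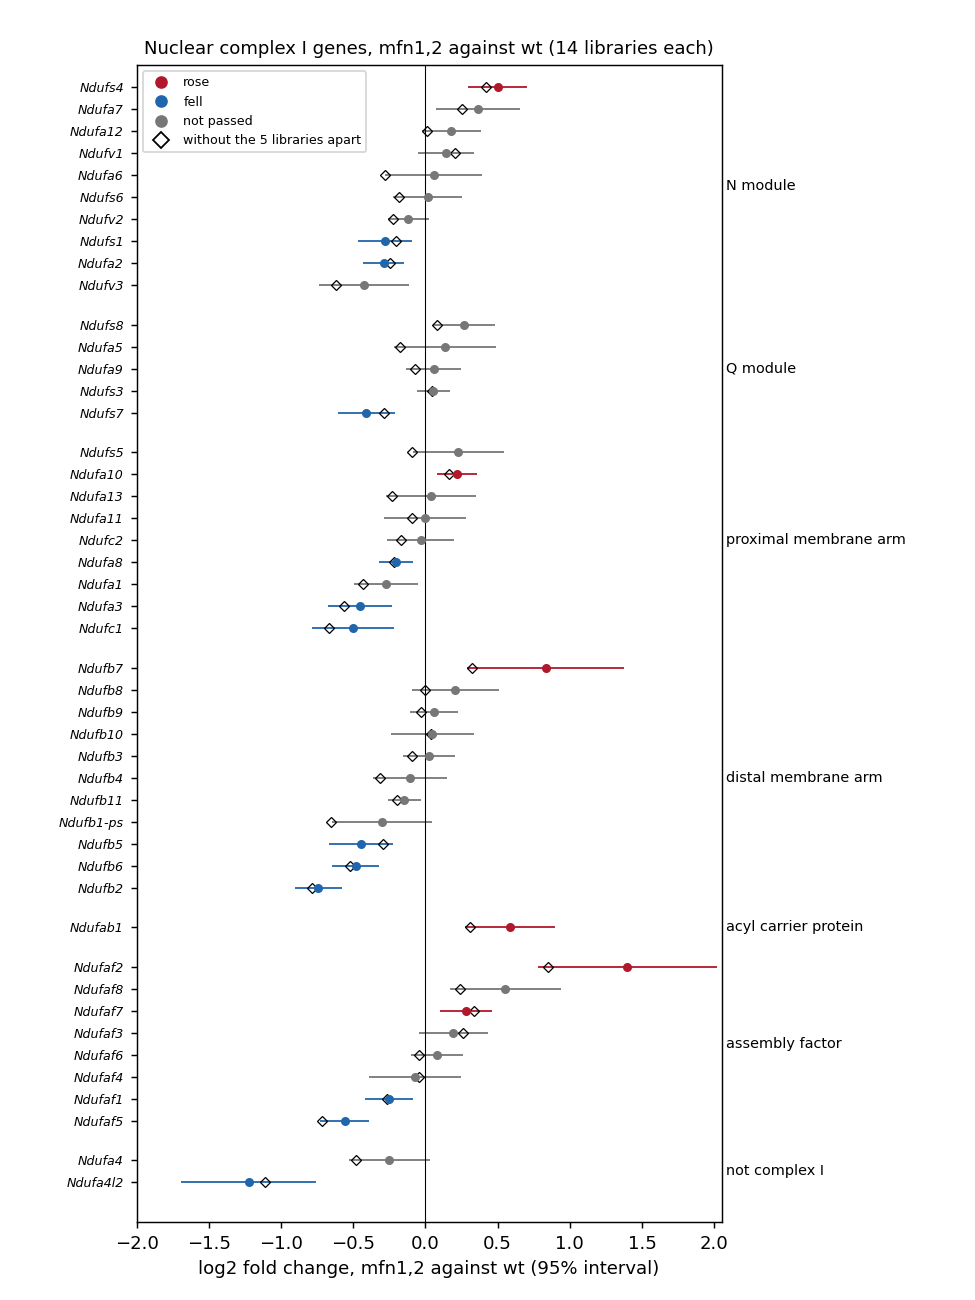
Log2 fold change of 46 of the 47 nuclear complex I genes in *mfn1,2* against wt muscle (filled points, 14 libraries each, lines are 95% intervals from limma), grouped by place in the complex, with the estimate without the 5 libraries that cluster apart as open diamonds. Points for subunits lie between −0.74 (*Ndufb2*) and 0.83 (*Ndufb7*), and *Ndufaf2* at 1.40 and *Ndufa4l2* at −1.22 are the values beyond 1.

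Direction in the counts above depended on how libraries were scaled. The sum of values per library was 426029 to 564123 in wt and 326643 to 419290 in *mfn1,2* muscle. With the main scaling the 37 subunits had a median log2 fold change of 0.017 and all tested genes one of 0.026. Taken as deposited, the medians were 0.65 for subunits and 0.64 for all genes, and 26 subunits rose and 0 fell, against 62.3% and 4.95% of all genes. After scaling to the same total, 36 subunits rose and 0 fell, against 79.1% and 2.6% of all genes, with medians of 1.07 and 1.04. Scaling to *Actb*, which itself fell by 0.83 on the log2 scale under the main scaling, gave 24 risen and 0 fallen, against 65.8% and 3.36%. Leaving the mitochondrially encoded genes out of the total gave 10 risen and 4 fallen, against 34.9% and 16.6%, and scaling to the upper quartile 3 risen and 14 fallen, against 24.4% and 28.1%. A scaling shifts the log2 fold change of every gene by nearly the same amount, apart from effects of the pseudocount and the filter. The subunits thus moved with the median gene by construction. The distance from that median kept its sign under all 6 scalings for 44 of the 47 genes, which follows from this arithmetic and is no test. Exceptions were *Ndufa11*, *Ndufs6* and *Ndufb3*. Rises and falls below are therefore to be read relative to the other genes of the muscle.

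**Figure D2:**
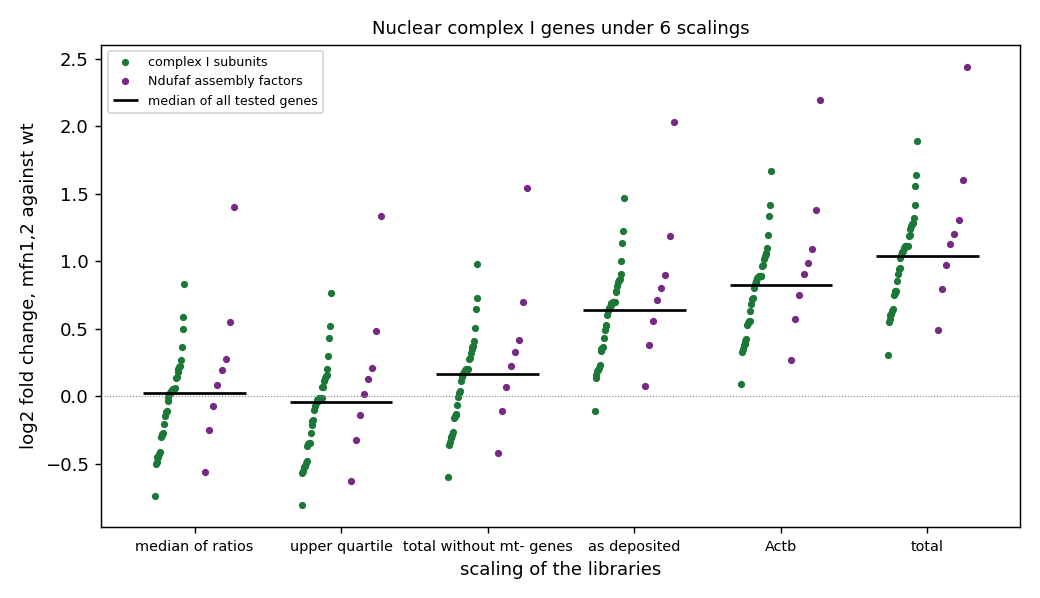
Log2 fold change of complex I subunits (green, 36 of 37 genes) and *Ndufaf* assembly factors (purple, 8 genes) in *mfn1,2* against wt muscle under the main scaling (median of ratios) and 5 others, with the median of all tested genes as a bar. The bar lies at 0.026 under the main scaling and at 1.04 when libraries are scaled to the same total. Since a scaling shifts all genes nearly alike, the spread around the bar is kept by construction.

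Among the 10 subunits of the N module, the tip of the matrix arm, 1 rose and 2 fell, beside 28.2% and 24.9% of all genes. The median log2 fold change of the module was 0.037. *Ndufs4*, a supernumerary subunit at the border of the N and Q modules whose loss in mice is a model of Leigh syndrome, is encoded on chromosome 13. Its level had a lowest value of 121.6, a median of 188 and a highest of 238 in wt, and 208, 247 and 343 in *mfn1,2* libraries. All 14 *mfn1,2* libraries were above the wt median and 10 above the highest wt library, so that the genotypes overlapped in the 4 lowest *mfn1,2* libraries. Mean levels were 185 ± 38.9 (SD, *n* = 14) and 258 ± 38.1 (SD, *n* = 14), a log2 fold change of 0.50 (SE 0.10, limma adjusted *P* = 8.92e-05). *Ndufs4* rose in every fit that left out 1 library, and without the 5 libraries that cluster apart its log2 fold change was 0.42 (limma adjusted *P* = 0.00113).

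The falls of the N module were smaller. *Ndufa2*, a thioredoxin-fold subunit (chromosome 18), was between 46.1 and 66.8 with a median of 57.6 in wt and between 36.8 and 57.1 with a median of 49.0 in *mfn1,2* libraries. Every *mfn1,2* library was below the wt median, and the log2 fold change was −0.29 (SE 0.070, limma adjusted *P* = 6.67e-04). *Ndufs1*, the core subunit that carries several of the iron-sulfur clusters (chromosome 1), had a log2 fold change of −0.28 (limma adjusted *P* = 0.00950), with 7 *mfn1,2* libraries below the lowest wt library at 105.4. This call was kept in 10 of the 28 fits that left out 1 library, was weakest without *mfn1,2* library 5 (limma adjusted *P* = 0.0191), and was lost without the 5 libraries that cluster apart (−0.21, limma adjusted *P* = 0.0610). *Ndufv1*, which binds FMN and NADH, and *Ndufv2*, its neighbor, had log2 fold changes of 0.14 and −0.12 and did not pass, and *Ndufv3* was at −0.43 (limma adjusted *P* = 0.0164). *Ndufa7* was at 0.37 (limma adjusted *P* = 0.0263).

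In the Q module, where ubiquinone is reduced, 0 of 6 subunits rose and 2 fell, beside 28.2% and 24.9% of all genes. The median of the module was 0.056. *Ndufs7* (chromosome 10), which holds the last iron-sulfur cluster before ubiquinone, was between 136.4 and 262 with a median of 164 in wt libraries, and between 113 and 169.5 with a median of 135 in *mfn1,2* libraries. The *mfn1,2* libraries were lower in 13 of 14 cases than the wt median, and 8 lay below every wt library. The log2 fold change was −0.41 (SE 0.096, limma adjusted *P* = 4.69e-04), and −0.29 without the 5 libraries that cluster apart (limma adjusted *P* = 0.00772). *Ndufs3*, another core subunit of the module, had a log2 fold change of 0.055 with a 95% interval from −0.057 to 0.17.

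The membrane arm held 20 of the 37 subunits and 6 of the 10 subunits that fell. In the proximal part of the arm, 1 of 9 subunits rose and 3 fell, beside 28.2% and 24.9% of all genes. The median of this part was −0.033. *Ndufc1* (chromosome 3), a short single-pass membrane subunit, was between 65.4 and 167 with a median of 95.3 in wt and between 48.1 and 114 with a median of 62.9 in *mfn1,2* libraries. Most *mfn1,2* libraries formed a low group, 10 of them below every wt library, while 2 lay above the wt median. Its log2 fold change was −0.50 (SE 0.14, limma adjusted *P* = 0.00236). *Ndufa3* (chromosome 7), another small membrane subunit, fell by 0.45 on the log2 scale (limma adjusted *P* = 5.50e-04), from 32.3 ± 6.12 to 23.7 ± 5.05 (SD, *n* = 14 each). It was between 23.4 and 42.0 in wt and between 15.9 and 32.8 in *mfn1,2* libraries, 6 of which lay below every wt library. *Ndufa8* (chromosome 2), which faces the intermembrane space and is held by disulfide bonds, fell by 0.20 (limma adjusted *P* = 0.00235).

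*Ndufa10* (chromosome 1), a subunit with a nucleoside kinase fold on the matrix side of the proximal membrane arm, was the subunit of that part that rose. It was between 76.2 and 112 with a median of 88.0 in wt and between 84.8 and 124.5 with a median of 107 in *mfn1,2* libraries. The ranges overlapped widely, with 2 *mfn1,2* libraries above every wt library and 13 above the wt median. The log2 fold change was 0.22 (SE 0.068, limma adjusted *P* = 0.00624). It passed in 18 of 28 fits without 1 library, was weakest without wt library 5 (limma adjusted *P* = 0.0124), and did not pass without the 5 libraries that cluster apart (0.16, limma adjusted *P* = 0.0323).

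In the distal membrane arm, 1 of 11 subunits rose and 3 fell, beside 28.2% and 24.9% of all genes, with a median of −0.11. Both the largest fall and the largest rise of any subunit were found there. *Ndufb2* (chromosome 6), a supernumerary subunit with a single membrane helix, had a lowest value of 13.6, a median of 19.5 and a highest of 22.9 in wt, and 9.57, 11.2 and 14.3 in *mfn1,2* libraries. Only the 2 highest *mfn1,2* libraries reached into the wt range. Means were 19.3 ± 3.05 and 11.5 ± 1.41 (SD, *n* = 14 each), a log2 fold change of −0.74 (SE 0.079, limma adjusted *P* = 2.07e-09), the smallest *P* of the 47 genes. *Ndufb6* (chromosome 4) was between 29.9 and 45.7 with a median of 33.7 in wt and between 20.9 and 32.5 with a median of 24.2 in *mfn1,2* libraries. All 14 *mfn1,2* libraries were below the wt median and 11 below every wt library, with a log2 fold change of −0.48 (SE 0.079, limma adjusted *P* = 4.83e-06). *Ndufb5* (chromosome 3) fell by 0.45 (limma adjusted *P* = 7.11e-04), and 9 *mfn1,2* libraries lay below the lowest wt library at 62.4. Without the 5 libraries that cluster apart its log2 fold change was −0.29 (limma adjusted *P* = 0.00978). *Ndufb6* shares 257 of its 659 exonic bases with *Smim27* on the opposite strand, which fell by 0.80 on the log2 scale. *Ndufb5* shares 616 of 4995 with *Mrpl47*, which was at 0.22 (limma adjusted *P* = 0.251). Mean wt levels were 35.4 for *Ndufb6* and 1.47 for *Smim27*, and 87.4 for *Ndufb5* and 4.59 for *Mrpl47*. Whether reads were counted by strand is not given in the sources used here, and the part of these overlaps was not tested.

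*Ndufb7* (chromosome 8), a disulfide-bonded subunit on the intermembrane space side, had the largest rise of the subunits and the widest spread. It was between 13.2 and 111 with a median of 78.4 in wt and between 69.7 and 108 with a median of 97.8 in *mfn1,2* libraries. No *mfn1,2* library exceeded the highest wt library. Its log2 fold change was 0.83 (SE 0.27, 95% interval 0.29 to 1.38, limma adjusted *P* = 0.00767). The 4 wt libraries that cluster apart were between 13.2 and 31.0, compared with 27.1 to 111 in the other 10, and without the 5 libraries the log2 fold change was 0.32 and did not pass (limma adjusted *P* = 0.0878). Of 28 fits without 1 library 13 kept the call, the weakest being without wt library 13 (limma adjusted *P* = 0.0155).

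*Ndufab1* (chromosome 7), the mitochondrial acyl carrier protein, sits in both arms of complex I and also serves fatty acid synthesis and iron-sulfur cluster assembly. It was between 15.2 and 46.3 with a median of 33.2 in wt and between 35.2 and 58.0 with a median of 42.2 in *mfn1,2* libraries. Every *mfn1,2* library was above the wt median and 5 were above the highest wt library. The log2 fold change was 0.59 (SE 0.15, limma adjusted *P* = 0.00139), and 0.31 without the 5 libraries that cluster apart (limma adjusted *P* = 0.0227), which did not pass. The gene has 2 annotated copies elsewhere in the genome with up to 99.7% identity, so its reads may have been split and its level is uncertain.

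**Figure D3:**
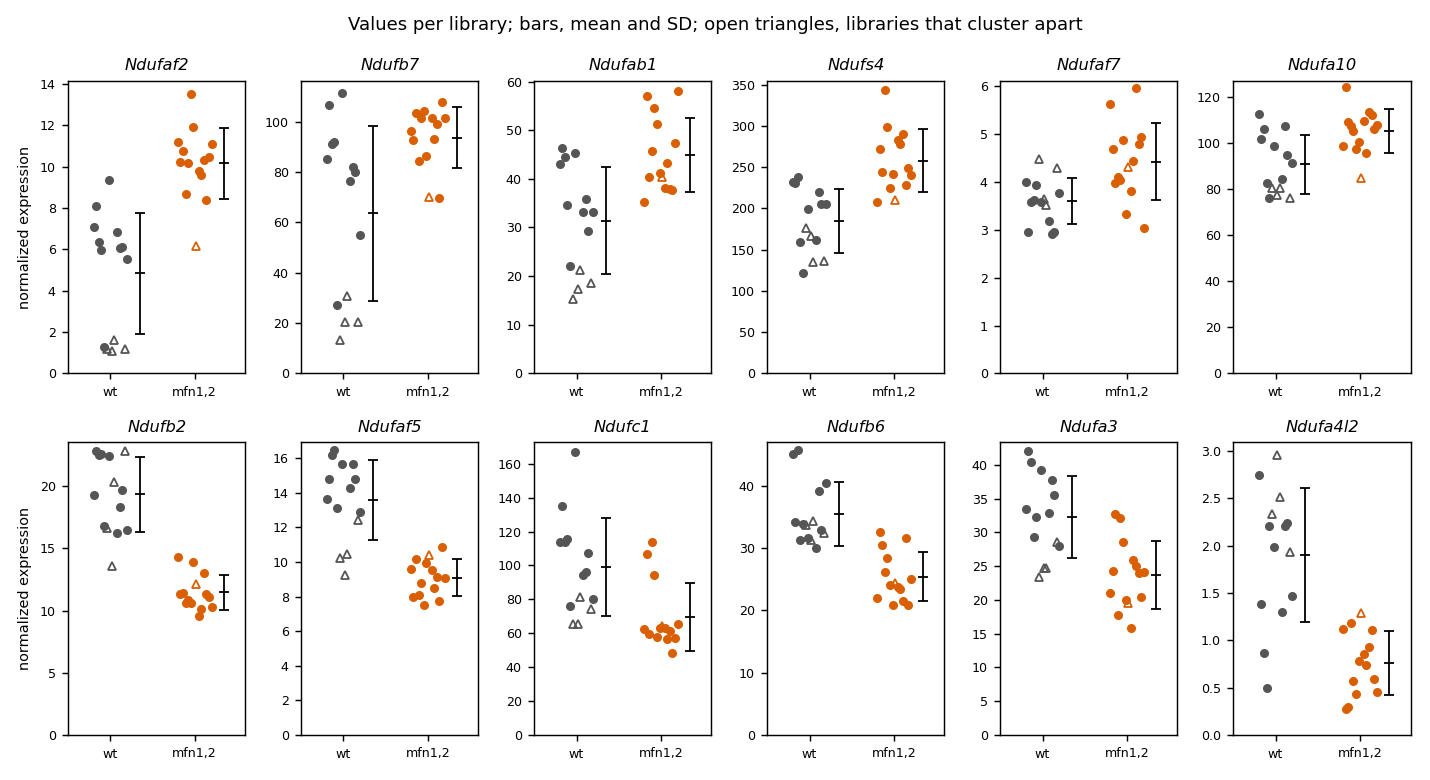
Normalized expression per library of the 6 largest rises (top) and 6 largest falls (bottom) among the genes that passed the test, in wt and *mfn1,2* muscle, with mean and SD beside the points and open triangles for the 5 libraries that cluster apart. For *Ndufaf2*, *Ndufb7* and *Ndufab1* the triangles of wt lie in the lower part of the wt range.

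Seen by structure rather than position, 4 of 30 supernumerary subunits rose and 7 fell, with a median of 0.021, and 0 of 7 core subunits rose and 3 fell, with a median of −0.12. The matrix arm had 1 risen and 4 fallen of 16, and the membrane arm 2 risen and 6 fallen of 20. For both splits the shares over all genes were 28.2% risen and 24.9% fallen. *Ndufa11*, *Ndufs6* and *Ndufb3* were nearest to no difference, with log2 fold changes of −0.0031, 0.017 and 0.026. Their 95% intervals were −0.29 to 0.28, −0.22 to 0.26 and −0.16 to 0.21, so differences up to these bounds could not be told from none. *Ndufs6* also has a copy of 96.6% identity (*Ndufs6b*), as have *Ndufa12*, *Ndufb11*, *Ndufs3* and *Ndufs5* under other names, and their levels are uncertain for the same reason.

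Of the 8 *Ndufaf* assembly factors 2 rose and 2 fell (25.0% each), beside 28.2% and 24.9% of all genes. Their median log2 fold change was 0.14, with values from −0.56 to 1.40. *Ndufaf2* (chromosome 13), a paralog of *Ndufa12* that holds its place in a late assembly intermediate, had a lowest value of 1.07, a median of 6.03 and a highest of 9.35 in wt, and 6.14, 10.3 and 13.5 in *mfn1,2* libraries. Every *mfn1,2* library was above the wt median and 11 were above every wt library. Means were 4.84 ± 2.92 and 10.2 ± 1.73 (SD, *n* = 14 each), a log2 fold change of 1.40 (SE 0.30, limma adjusted *P* = 2.04e-04). The 4 wt libraries that cluster apart were between 1.07 and 1.63 and the other 10 between 1.28 and 9.35, and without the 5 libraries *Ndufaf2* still rose, by 0.85 on the log2 scale (limma adjusted *P* = 8.49e-04). *Ndufaf7* (chromosome 17), an arginine methyltransferase, was between 2.90 and 4.47 with a median of 3.60 in wt and between 3.03 and 5.95 with a median of 4.37 in *mfn1,2* libraries. The ranges overlapped, with 6 *mfn1,2* libraries above every wt library. *Ndufaf7* had a log2 fold change of 0.28 (SE 0.088, limma adjusted *P* = 0.00678), was weakest without *mfn1,2* library 11 (limma adjusted *P* = 0.0136), and passed in 18 of 28 such fits.

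*Ndufaf5* (chromosome 2), which hydroxylates an arginine of Ndufs7, was the assembly factor with the largest fall. It was between 9.24 and 16.5 with a median of 13.97 in wt and between 7.51 and 10.9 with a median of 9.10 in *mfn1,2* libraries. Every *mfn1,2* library was below the wt median and 8 were below every wt library. Mean levels were 13.6 ± 2.31 and 9.10 ± 1.05 (SD, *n* = 14 each), a log2 fold change of −0.56 (SE 0.084, limma adjusted *P* = 1.07e-06) that was −0.71 without the 5 libraries that cluster apart. *Ndufaf8*, which binds and stabilizes Ndufaf5, went the other way at 10.0 ± 3.68 and 13.9 ± 2.95 (SD, *n* = 14 each), but its log2 fold change of 0.55 did not pass (limma adjusted *P* = 0.0109). Without the 5 libraries that cluster apart the log2 fold change of *Ndufaf8* was 0.24 (limma adjusted *P* = 0.05075). *Ndufaf1* (chromosome 2), a member of the MCIA complex that assembles the proximal membrane arm, had a log2 fold change of −0.25 (limma adjusted *P* = 0.00792). It passed in 13 of 28 fits without 1 library, was weakest without *mfn1,2* library 1 (limma adjusted *P* = 0.0159), and did not pass without the 5 libraries, where its log2 fold change was −0.27 (limma adjusted *P* = 0.0126). *Ndufaf3* and *Ndufaf4*, partners in the assembly of the Q module, were at 0.19 and −0.072, and *Ndufaf6*, needed early in assembly, at 0.083, none of which passed.

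Assembly genes named outside the *Nduf* series had log2 fold changes from −0.63 to 1.36. Of a list of 14 such genes 13 were in the table, of which 6 rose and 2 fell with a median of 0.18, beside 28.2% and 24.9% of all genes. *Foxred1*, an oxidoreductase of late assembly, was between 1.86 and 4.16 in wt and between 4.57 and 6.74 in *mfn1,2* libraries (log2 fold change 0.66, limma adjusted *P* = 6.04e-08). It was the 1 gene of these 13 whose genotypes did not overlap, beside 6.16% of all genes with every *mfn1,2* library above every wt library. *Sfxn4*, a sideroflexin needed for complex I assembly, rose by 1.36 on the log2 scale from a low level of 0.246 ± 0.112 to 0.874 ± 0.576 (SD, *n* = 14 each). *Nubpl*, which serves the iron-sulfur clusters of the enzyme, had a log2 fold change of 0.99 (limma adjusted *P* = 4.69e-04), also at levels near or under 1. *Tmem126b*, a partner of *Ndufaf1* in the MCIA complex, fell by 0.63 (limma adjusted *P* = 7.50e-06). With libraries scaled to the same total, 13 genes of this list rose and 0 fell, beside 79.1% and 2.6% of all genes. The nuclear subunits of complexes II to V, the transcripts most like those of complex I, had 10 risen and 5 fallen of 39. This is 25.6% and 12.8%, beside 28.2% and 24.9% of all genes, and their median was 0.11.

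The pair without a place in complex I gave the largest fall of the 47 genes. *Ndufa4l2* (chromosome 10), known as a target of hypoxia-inducible factor that lowers complex I activity, was between 0.498 and 2.96 with a median of 2.10 in wt and between 0.277 and 1.29 with a median of 0.760 in *mfn1,2* libraries. All 14 *mfn1,2* libraries were below the wt median and 4 below every wt library. The log2 fold change was −1.22 (SE 0.23, limma adjusted *P* = 3.21e-05) at a low level, and −1.11 without the 5 libraries that cluster apart. *Ndufa4l2* overlaps *Shmt2* on the opposite strand by 32 of 1095 exonic bases, and *Shmt2* rose by 1.43 on the log2 scale. *Ndufa4* (chromosome 6), a subunit of cytochrome c oxidase, was at 61.0 ± 19.4 and 49.4 ± 8.14 (SD, *n* = 14 each) and did not pass (−0.25, limma adjusted *P* = 0.111).

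Ratios of 2 genes within a library are the same under every scaling. The ratio of *Ndufs4* to *Ndufb2* was between 5.96 and 12.4 in wt and between 14.6 and 32.3 in *mfn1,2* libraries, without overlap. The ratio of *Ndufab1* to *Ndufb2* was between 0.815 and 2.23 in wt and between 2.46 and 5.65 in *mfn1,2* libraries, again without overlap. The ratio of *Ndufaf2* to *Ndufaf5* was between 0.0952 and 0.597 and between 0.588 and 1.80, with 13 of 14 *mfn1,2* libraries above every wt library. These pairs were picked from the largest rises and falls, so the direction of the ratios follows from that choice and no test is given.

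The order of levels among subunits was alike in both genotypes. *Ndufb9*, a LYR-motif subunit of the distal arm, had the highest mean in both (325 and 335), followed by *Ndufb10* (288 and 288), with *Ndufb3* lowest in wt (16.0) and *Ndufb2* lowest in *mfn1,2* muscle (11.5). The highest subunit was 20.4 times the lowest in wt and 29.2 times in *mfn1,2* muscle, and the rank correlation of the 37 means between genotypes was 0.962, as a description over genes that share libraries. Because the values fall with gene length and their unit is not stated, these are read as levels per length. The subunits belong to a complex that holds most of them in equal numbers. *Ndufs4* moved from rank 7 to rank 3, *Ndufb7* from 21 to 14 and *Ndufc1* from 12 to 19.

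Spread between libraries was wider in wt than in *mfn1,2* muscle for 33 of 37 subunits, compared with 60.9% of all genes, and without the 5 libraries that cluster apart for 25 of 37, compared with 56.5%. With all libraries the median coefficient of variation was 23.2% in wt (range 9.58% to 54.5%) and 14.6% in *mfn1,2* muscle (5.41% to 28.7%), and without the 5 it was 17.1% and 12.7%. Within wt, subunits moved together across libraries, with a median pairwise correlation of log values of 0.479 over 666 pairs, 516 of them above 0, compared with −0.001 for pairs of all genes. In *mfn1,2* muscle the median was 0.257, compared with 0.002. Without the libraries that cluster apart the medians were 0.402 over 10 wt libraries and 0.204 over 13 *mfn1,2* libraries. These are descriptions over 14 libraries per genotype of mixed ages, and the points share libraries and their scaling. Medians below 0 in wt were those of *Ndufs7* (median correlation with the other subunits −0.63), *Ndufb5* (−0.58), *Ndufs1* (−0.32), *Ndufa2* (−0.22) and *Ndufv1* (−0.058). That of *Ndufv1* was near 0. In *mfn1,2* muscle they were those of *Ndufb2* (−0.19), *Ndufa7* (−0.11) and *Ndufa11* (−0.0097), which were weak or near 0. Over the 10 other wt libraries the medians were −0.41 for *Ndufs7*, −0.068 for *Ndufb5*, −0.39 for *Ndufs1* and −0.18 for *Ndufa2*, that of *Ndufv1* was not below 0, and those of *Ndufa7* and *Ndufa11* were −0.12 and −0.054.

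The 4 wt libraries that cluster apart were low for most subunits. In them 33 of 37 subunits had a lower median than in the other 10 wt libraries, compared with 49.5% of all genes, 15 of them with no overlap, compared with 5.55%. A higher median was found for 4 (*Ndufs7*, *Ndufb5*, *Ndufs1* and *Ndufa2*), compared with 50.3%, and 0 lay above without overlap, compared with 1.8%. The median subunit was between −0.37 and −0.26 in these 4, between −0.085 and 0.35 in the other wt libraries and between −0.19 and 0.16 in *mfn1,2* libraries, in log2 units around the mean of both genotypes. Since the clustering used these genes among the rest, this is a description. The subunit that rose without the 5 libraries was *Ndufs4*. Of the 10 that fell with all libraries 9 fell again, and *Ndufa1*, *Ndufb1-ps*, *Ndufb4*, *Ndufb11*, *Ndufv2* and *Ndufv3* were added, *Ndufb1-ps* (listed in RefSeq as Ndufb1) with the largest value of −0.65.

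**Figure D4:**
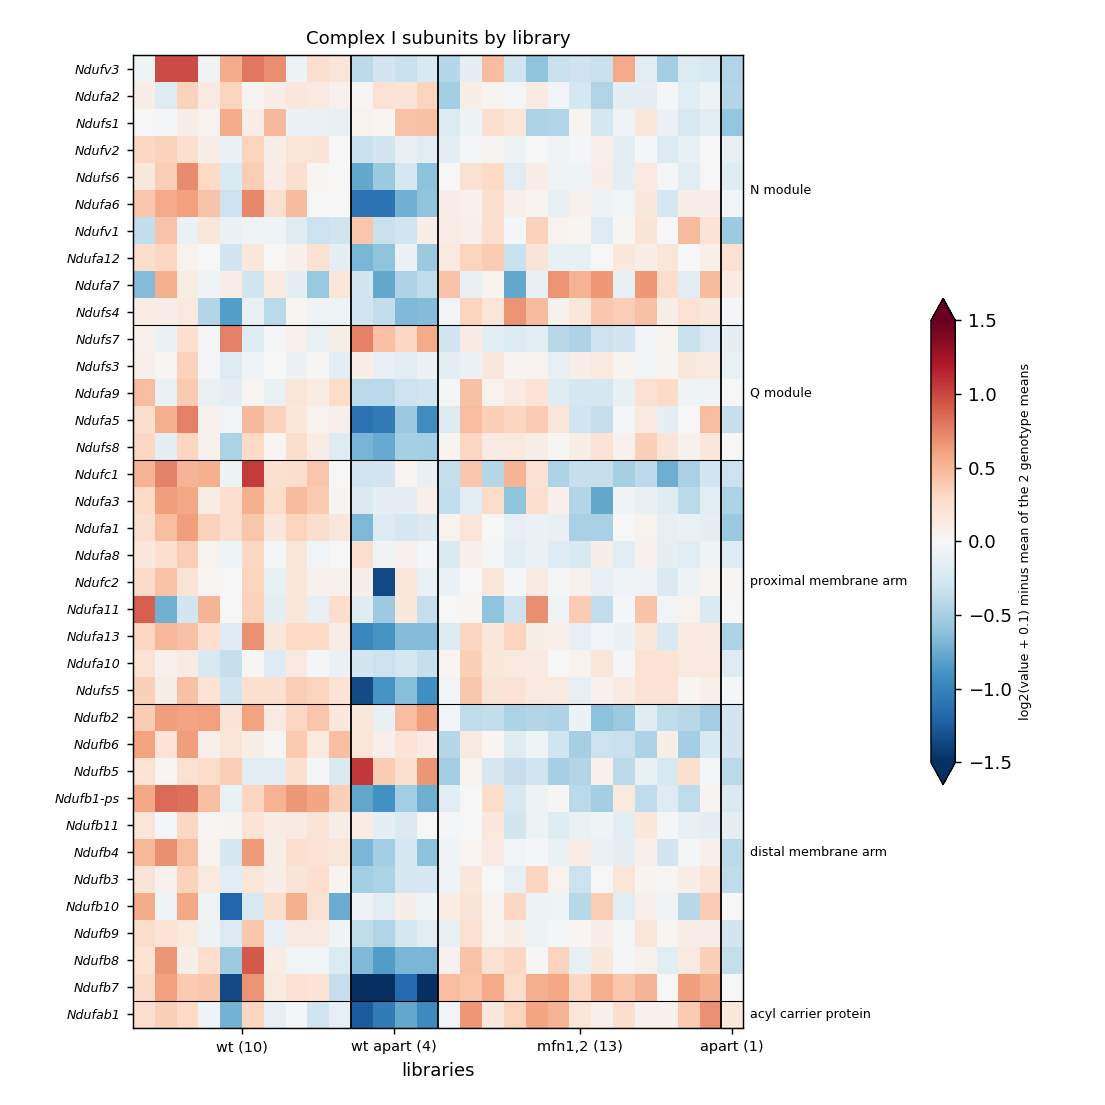
Level of 36 of the 37 complex I subunits in each of 28 libraries as log2(value + 0.1) minus the mean of both genotype means (color scale ends at ±1.5), with libraries in columns, genes ordered by place in the complex and by log2 fold change, and lines that set off the libraries that cluster apart. In the 4 wt libraries apart most rows are blue, with *Ndufs7*, *Ndufb5*, *Ndufs1* and *Ndufa2* as the rows with higher medians.

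Mitochondrially encoded subunits of the same enzyme fell together. The 6 in the table (*mt-Nd1* to *mt-Nd6*), core subunits of the membrane arm, fell without overlap between genotypes, beside 5.08% of all genes. Their log2 fold changes were from −3.38 (*mt-Nd3*) to −2.69 (*mt-Nd6*). The ratio of the summed 37 nuclear subunits to the summed 6 mitochondrial ones, which no scaling alters, had a lowest value of 0.0678, a median of 0.0832 and a highest of 0.158 in wt, and 0.464, 0.660 and 0.904 in *mfn1,2* libraries. The wt libraries that cluster apart, at 0.0713 to 0.0892, lay within the wt range for this ratio. The summed nuclear level overlapped between genotypes, at 2713 to 4467 in wt and 3055 to 3951 in *mfn1,2* libraries, while the mitochondrial sum was 27290 to 60170 and 3818 to 7474.

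**Figure D5:**
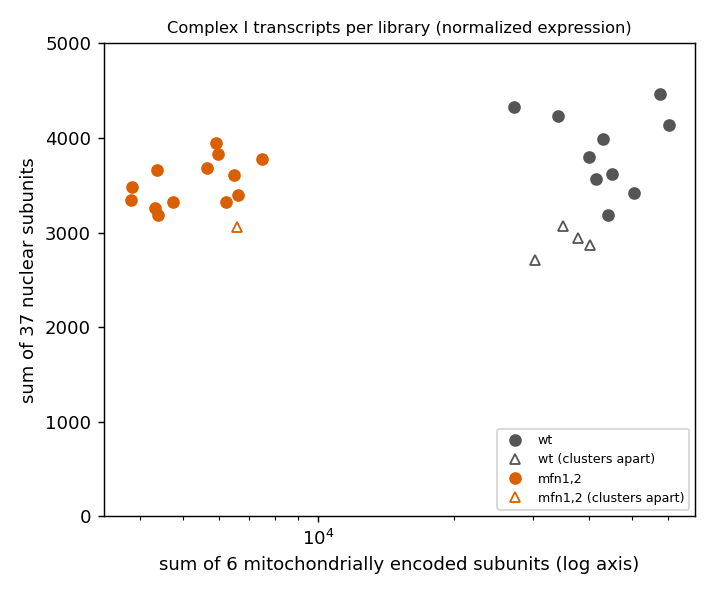
Summed normalized expression of the 37 nuclear complex I subunits (vertical, from 0) against that of 6 mitochondrially encoded subunits (horizontal, log axis) in each wt (gray) and *mfn1,2* (orange) library, with triangles for the 5 libraries that cluster apart. Genotypes are separate on the horizontal axis, between 3818 and 7474 in *mfn1,2* and 27290 and 60170 in wt muscle, and overlap on the vertical axis.

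Promoters of these genes were searched for 6 short motifs of factors known to act on respiratory genes or in stress responses, on both strands, from 250 bases before to 50 after the transcript start (RefSeq, GRCm38.p6). A promoter was found for 41 of the 47 genes, 33 of them complex I subunits, and genes without an entry included *Ndufs1*, *Ndufa2*, *Ndufb9*, *Ndufa4l2* and *Ndufaf6*. The letters AAGATGG, a core of the YY1 site, were in 7 of 33 subunit promoters (21.2%) and in 6.48% of all 27025 promoters. These letters contain ATG, and the window reaches 50 bases into the transcript, so a match there may overlap a translation start. Whether this part of the window accounts for the difference in shares was not tested. Among the subunits with a match were *Ndufa3*, *Ndufc1* and *Ndufs7*, which fell, and *Ndufs4*, which rose. The match lay in the first transcribed bases of these 4, and the windows are shown because genes that moved in opposite directions share it, with the motif in capitals:

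Ndufa3, chr7:3617383-3617412, + strand: gccgccaagaacAAGATGGccgggagtaag
Ndufc1, chr3:51408916-51408945, − strand: agcctgcggaacAAGATGGcgccgtccgta
Ndufs7, chr10:80249461-80249490, + strand: aaggccgaggccAAGATGGcggcgctggcg
Ndufs4, chr13:114388045-114388074, − strand: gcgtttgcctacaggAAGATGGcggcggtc

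The other motifs were nearer to their background. GCATGCG (NRF1) was in 9.09% of subunit promoters and 3.64% of all, AAGGTCA (a partial site of estrogen-related receptors) in 9.09% and 4.66%, CCGGAAG (ETS factors such as GABPA) in 12.1% and 9.12%, TGATGCA (ATF4 with C/EBP) in 3.03% and 3.20%, and ACGTG (the core of the hypoxia response element, also part of other sites) in 21.2% and 19.7%. *Ndufaf5* and *Ndufa8*, which fell, were the called genes with GCATGCG, *Ndufb2* the called gene with AAGGTCA, and *Ndufb7* the risen gene with CCGGAAG. The motif of ETS factors was also found in *Ndufaf1* and *Ndufb6*, which fell. The windows of *Ndufaf5*, *Ndufa8*, *Ndufb2* and *Ndufb7* are shown so that the matched letters can be seen beside their surroundings, with the motif in capitals:

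Ndufaf5, chr2:140170652-140170681, + strand: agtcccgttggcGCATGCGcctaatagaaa
Ndufa8, chr2:36049329-36049358, − strand: gtcgctggagacGCATGCGcagatggtacc
Ndufb2, chr6:39592372-39592401, + strand: gggagcagcagtAAGGTCAgccaagagcac
Ndufb7, chr8:83566726-83566755, + strand: agcctagatgacCCGGAAGacactgaaggg

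A match is a description of the letters, and a missing match says only that they are not in the window. *Ndufa8* and *Ndufaf5* also match GCATGCG on the opposite strand by the same bases shifted by 1, since the motif is close to its own reverse complement.

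Several members start within 1000 bases of a gene on the opposite strand, and 16 such pairs were tested. In 9 of them the neighbor rose, beside 28.2% of all genes. *Ndufaf5* fell by 0.56 on the log2 scale while *Esf1*, whose start is 85 bases away, rose by 0.54 (limma adjusted *P* = 6.36e-04). *Ndufs1* fell by 0.28 while *Eef1b2*, a translation elongation factor with its start 8 bases away, rose by 1.05 (limma adjusted *P* = 1.02e-07). In the pair of *Ndufa2* and *Ik*, the former fell and the latter rose by 0.39, whereas *Ndufaf7* and *Cebpz* both rose. The neighbor of *Ndufaf2*, *Ercc8*, was at 0.18 and did not pass (limma adjusted *P* = 0.419). Thus the sign of a nuclear complex I gene and that of its neighbor differed in some pairs and not in others.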

How the data were processed

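Libraries were made by the authors with a stranded total RNA kit, with the tools Trim Galore, HISAT2, featureCounts and DESeq2 and the build mm9 listed by the submitters' processing notes (no versions). What was deposited is a normalized signal that is not whole, so depth is unknown and no counting interval is given. Precision rests on 14 mice per genotype, whose spread is that between animals. Columns of the table left unused numbered 0. Each library was divided by its median ratio to the geometric mean over the 11693 genes with no 0, and limma 3.58.1 (R 4.3.3) was fitted by genotype (mean-variance trend, pseudocount 0.1, minimum mean 0.5, Benjamini-Hochberg over 10804 genes). The steps were tested on simulated data. Copies of members were transcripts with at least 95% identity over 75 bases and 50% of the length (BLAST+ 2.17.0, GENCODE M21), and neighbors came from the same annotation. Tables and figures used Python 3.11.15, pandas 2.3.3 and matplotlib 3.10.9.

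The members, gene lists, motifs and tests were chosen with earlier results of these data known. Named genes are every *Ndufaf* gene, every *Nduf* gene that passed except 1 that is counted but not reported here by itself, the 3 subunits nearest to no difference, and up to 4 of the other assembly genes, with other genes named where a value turns on them. Neighbors, ratios, the spread and correlation without the 5 libraries apart, and the genes that gained or lost a call were chosen after their values were seen. Alternatives comprised 5 further scalings, a pseudocount of 1 or 0.01, no minimum mean or 5, robust and untrended variance, a Wilcoxon rank-sum test, other thresholds, and leaving out libraries. Differences by age were not analysed here.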

Additional observations from a re-analysis of the deposited data

How the results depend on the processing

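Depth is unknown, so the 14 libraries per genotype set the precision. In the main fit 4 subunits rose and 10 fell of 37, 2 and 2 of 8 *Ndufaf* factors, and 6 and 2 of 13 other assembly genes. In that order, risen and fallen genes numbered 26 and 0, 6 and 0, and 11 and 0 with values as deposited, 36 and 0, 8 and 0, and 13 and 0 with equal library totals, and 24 and 0, 6 and 0, and 11 and 0 when scaled to *Actb*. Shares of all genes risen and fallen were 28.2% and 24.9% in the main fit and 62.3% and 4.95% as deposited. They were 79.1% and 2.6% with equal totals, and 65.8% and 3.36% with *Actb*. Without *mt-* genes in the total, risen and fallen subunits numbered 10 and 4, with 1 fallen factor, and with the upper quartile 1 factor rose. Under the Bonferroni and fold rule 0 genes of any list were called. A minimum mean of 5 gave 1 risen factor and 3 and 1 other assembly genes, from fewer genes tested, and a Wilcoxon test 1 fallen factor. Without the 5 libraries that cluster apart, 1 subunit rose and 1 factor fell. The other counts stayed within 1.5 times, among them those with the other pseudocounts, no filter, robust or untrended variance and a threshold of 0.05. The cause of these shifts was not tested.

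Leaving out 1 library gave 2 to 5 risen and 8 to 11 fallen subunits, 1 to 3 and 1 to 2 *Ndufaf* factors, and 5 to 7 and 2 other assembly genes. The 2 risen subunits came without wt libraries 5, 6, 8, 9 or 13 or *mfn1,2* libraries 2 or 11. Calls gained in some of these 28 fits were *Ndufaf8* (9 fits), *Ndufv3* (4), *Ndufa7* (2), *Ndufa1* (1) and *Ndufb11* (1).

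The log2 fold changes that turned from negative to positive, with a call in either fit, were as follows for values as deposited, the same total and *Actb* in that order. They were 0.63, 1.05 and 0.83 for *Ndufa11*, 0.35, 0.77 and 0.55 for *Ndufa2*, 0.18, 0.60 and 0.38 for *Ndufa3*, 0.43, 0.85 and 0.63 for *Ndufa8*, 0.38, 0.79 and 0.57 for *Ndufaf1*, 0.56, 0.97 and 0.75 for *Ndufaf4*, 0.075, 0.49 and 0.27 for *Ndufaf5*, 0.49, 0.91 and 0.69 for *Ndufb11*, 0.19, 0.61 and 0.39 for *Ndufb5*, 0.15, 0.57 and 0.35 for *Ndufb6*, 0.14, 0.55 and 0.33 for *Ndufc1*, 0.61, 1.02 and 0.80 for *Ndufc2*, 0.36, 0.78 and 0.56 for *Ndufs1*, 0.23, 0.65 and 0.43 for *Ndufs7*, and 0.52, 0.94 and 0.72 for *Ndufv2*. For values as deposited and the same total they were 0.36 and 0.78 for *Ndufa1*, 0.39 and 0.81 for *Ndufa4*, and 0.53 and 0.95 for *Ndufb4*. For the same total and *Actb* they were 0.31 and 0.088 for *Ndufb2* and 0.40 and 0.18 for *Mfn2*, and for the same total 0.75 for *Ndufb1-ps* and 0.63 for *Ndufv3*. No paired analysis was possible because the columns carry no replicate numbers of the labels.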
